A study of Mus musculus with 6 samples.

Results

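Brain endothelial cells (ECs) are joined to each other by tight, adherens, and gap junctions, and the transcripts of 31 genes that build these junctions were followed across the cell types and vascular zones of the mouse brain and between wild-type (WT) mice and mice of the TgApp ArcSwe model. The 31 genes were named by their role at endothelial junctions, not by their values, and all 31 were found among the 32287 features of the count matrices. The data came from 6 droplet libraries of 1 mouse each, 3 from male C57BL/6J mice (WT) and 3 from male TgApp ArcSwe mice (genotype label AppArcSwe), which carry human APP with the Arctic and Swedish mutations and develop amyloid in the brain and its vessels. All 6 mice were 12 months old and untreated, and the promoter that drives the transgene is not given in the sources used here. Vessel fragments had been captured with beads against CD31, the protein of the member gene *Pecam1*, and were then dissociated to single cells.

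Tight junctions seal the space between neighbouring cells. Their strands are made of claudins, in the brain endothelium mainly claudin-5, and of occludin and its relatives, which scaffold proteins such as ZO-1 tie to the cytoskeleton. Adherens junctions hold cells together through cadherins, whose tails bind catenins, and gap junctions are channels of connexins that pass ions and small molecules between cells. ECs of the blood-brain barrier carry continuous tight junctions, whereas the fenestrated ECs of the choroid plexus and circumventricular organs are leaky.

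The promoter windows of 4 genes are shown for contrasts described below, the low *Cldn5* and *Lsr* levels of fenestrated cells and the arterial levels of *Gja4* and *Gja5*. Other members, such as *Jam3*, *Igsf5*, and *Ocln*, differed more than *Lsr* between fenestrated and capillary-like cells. Each window holds the 250 bases before the transcription start in RefSeq (build GRCm38.p6, the mm10 assembly), and 22 of the 31 genes were found in the RefSeq promoter table. The *Cldn5* window lies at chr16:18776597-18776846 (plus strand), that of *Lsr* at chr7:30973470-30973719 (minus strand), that of *Gja4* at chr4:127314040-127314289 (minus strand), and that of *Gja5* at chr3:97032152-97032401 (plus strand), inside the span of the *Gja5* gene in GENCODE. Capitals mark matches, on either strand, to CTTTG (the core bound by LEF/TCF factors), TGGGAA (the core bound by RBPJ, the factor of the Notch pathway), and ACAAT (a core bound by SOX factors).
Cldn5: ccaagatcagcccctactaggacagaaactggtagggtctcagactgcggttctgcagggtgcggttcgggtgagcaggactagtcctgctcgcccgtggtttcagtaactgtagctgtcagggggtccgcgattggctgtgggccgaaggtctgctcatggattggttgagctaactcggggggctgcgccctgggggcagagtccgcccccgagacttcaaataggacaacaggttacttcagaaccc
Lsr: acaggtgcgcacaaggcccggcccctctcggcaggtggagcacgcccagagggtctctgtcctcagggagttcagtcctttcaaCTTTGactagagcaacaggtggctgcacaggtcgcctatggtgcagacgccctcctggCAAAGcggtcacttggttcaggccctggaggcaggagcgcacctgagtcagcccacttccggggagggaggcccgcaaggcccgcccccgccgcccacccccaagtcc
Gja4: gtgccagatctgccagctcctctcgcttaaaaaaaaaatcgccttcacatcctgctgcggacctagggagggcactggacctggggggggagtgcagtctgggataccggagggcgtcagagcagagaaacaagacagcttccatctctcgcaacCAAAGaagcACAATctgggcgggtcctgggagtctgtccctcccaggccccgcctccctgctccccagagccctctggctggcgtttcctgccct
Gja5: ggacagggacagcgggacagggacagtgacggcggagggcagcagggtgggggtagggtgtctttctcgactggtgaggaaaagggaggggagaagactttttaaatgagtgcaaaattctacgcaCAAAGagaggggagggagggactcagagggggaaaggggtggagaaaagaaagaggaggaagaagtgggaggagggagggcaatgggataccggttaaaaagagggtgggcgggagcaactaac
The *Lsr* window held 2 matches to CTTTG and the *Gja5* window 1, and the *Gja4* window held 1 match to CTTTG and 1 to ACAAT. No match to any of the 3 cores was found in the *Cldn5* window, and no matches overlapped each other in the windows shown. Among all 32851 windows of the table, 48.6% held CTTTG, 21.6% TGGGAA, and 27.7% ACAAT, and among the 32 windows of the 22 genes 15.6%, 21.9%, and 12.5% did.

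The libraries held 2907 to 14928 cells and 26436229 to 59161203 unique molecular identifiers (UMIs), and 44112 cells passed the filter. Pairs of libraries shared 3 to 33 cell barcodes. Cells were clustered without the 31 genes and named from markers, and raw UMIs were summed per mouse and class and scaled to CPM, the count per 1e6 UMIs of that sum. The 21288 barrier ECs included 1402 large arterial-, 6168 arteriolar-, 8325 capillary-, and 2470 venous-like cells, and 842 fenestrated, 654 pericyte-, 3388 smooth muscle-, and 7099 microglia-like cells were summed beside them. The fenestrated class carried the fenestration markers at 8303 to 11359 CPM in sum, against 16.8 to 23.7 CPM in capillary-like cells. The capillary-like class was made of different clusters in different mice. One cluster held 78.7% of these cells in WT replicate 3 and 14.6% to 25.9% in the other mice, another held 67.9% in TgApp ArcSwe replicate 3, and a cluster led by immediate-early genes held 44.1% to 55.2% in the other 4 mice. In bulk sums such as these, fewer expressing cells and less RNA per cell cannot be told apart.

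**Figure D1:**
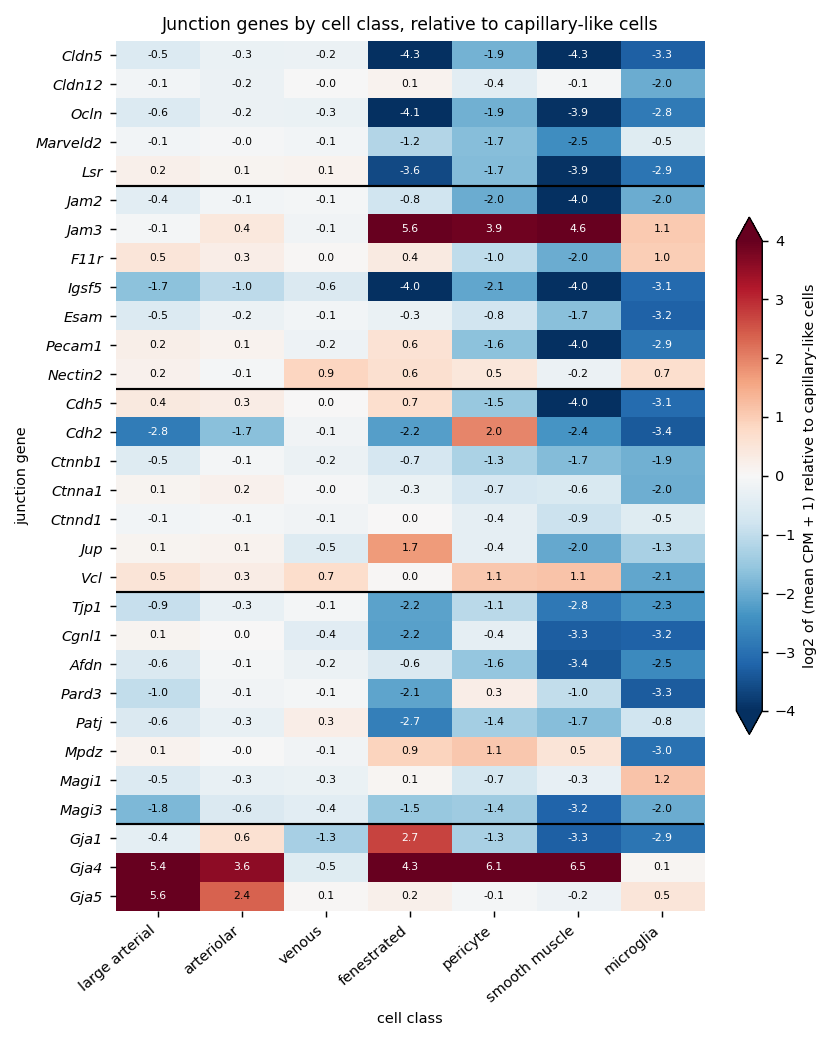
Mean level of each junction gene in each cell class relative to capillary-like cells, as the difference in log2 of (mean CPM + 1) over 6 mice, with genes in rows grouped by role and cell classes in columns. *Gja4* stands out in the arterial, fenestrated, and mural columns and *Gja5* in the arterial columns, whereas *Cldn5*, *Ocln*, and *Lsr* are low in the fenestrated column.

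How far the junction genes differ between the zones of the vascular tree was asked first. Zones and levels came from the same cells, so these comparisons are descriptions without a test. A gene was counted as apart when all 6 mice of one class lay above, or all below, those of the other, among genes with a mean of at least 10 CPM in one of both classes. Between arteriolar- and capillary-like cells 1 of 27 junction genes lay above (7.65% of all genes) and 3 below (4.97% of all genes). Large arterial-like cells stood further from capillary-like cells, with 3 of 28 junction genes above (12.8% of all genes) and 11 below (15.1% of all genes), and the median log2 ratio of the junction genes was -0.26 beside -0.094 over all genes. That median was -0.099 beside -0.095 over all genes with finer clustering (resolution 2), and -0.16 without TgApp ArcSwe replicate 2. In venous-like cells 0 of 26 lay above (3.78% of all genes) and 5 below the capillary level (5.89% of all genes). Between arteriolar- and venous-like cells 5 of 27 lay above (12.3% of all genes) and 2 below (6.99% of all genes). In fenestrated cells 8 of 29 lay above (13.4% of all genes) and 15 below the capillary level (12.9% of all genes), the largest counts of the 5 comparisons.

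Of the tight junction membrane proteins, *Cldn5*, the gene of claudin-5, was found in every barrier zone. In capillary-like cells its level was 6414, 5190, and 5514 CPM in the WT mice and 6050, 6250, and 6408 CPM in the TgApp ArcSwe mice. In large arterial-like cells it was 4664, 3296, and 3631 CPM and 4129, 4680, and 4312 CPM, below the capillary range in all mice. Fenestrated cells had 244, 39.3, and 276 CPM in the WT mice and 457, 53.8, and 745 CPM in the TgApp ArcSwe mice. Replicate 2 was the lowest mouse in fenestrated cells in both genotypes, and all 6 mice lay far below the capillary range. The mean over 6 mice was 303 ± 266 CPM (SD) in fenestrated and 5971 ± 508 CPM in capillary-like cells, a 19.7-fold difference. Microglia-like cells held *Cldn5* at 618 ± 529.7 CPM (SD, n = 6), above the fenestrated mean, at a median of 1572 UMIs per cell beside 4432 in fenestrated cells. This was 11.8% of the level in barrier ECs, within the 11.04% to 17.4% found there for 12 barrier endothelial markers. The remaining *Cldn5* counts of fenestrated cells therefore cannot be told apart from RNA of other cells.

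*Ocln* encodes occludin, a membrane protein of the tight junction strand. It was at 301, 288, and 324 CPM in capillary-like cells of the WT mice and at 287, 324, and 299 CPM in those of the TgApp ArcSwe mice, whereas fenestrated cells had 16.7, 8.59, and 11.4 CPM and 18.7, 1.85, and 47.1 CPM. Every fenestrated value lay below every capillary value, a 17.5-fold difference of the means. *Lsr*, whose product gathers tight junction proteins where 3 cells meet, was at 283 ± 15.3 CPM (SD, n = 6) in capillary-like, 22.2 ± 17.5 CPM in fenestrated, and 36.3 ± 29.1 CPM in microglia-like cells. Along the barrier zones *Ocln* was apart from the capillary level in large arterial- and venous-like cells, lower in both, whereas *Lsr* overlapped in all barrier zones. *Marveld2*, the gene of tricellulin, which sits at the same contacts as the *Lsr* product, averaged 14.5 CPM in capillary-like and 5.93 CPM in fenestrated cells. *Cldn12*, a further claudin, was low, with an average of 9.52 CPM in capillary-like and 10.6 CPM in fenestrated cells, which overlapped.

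**Figure D2:**
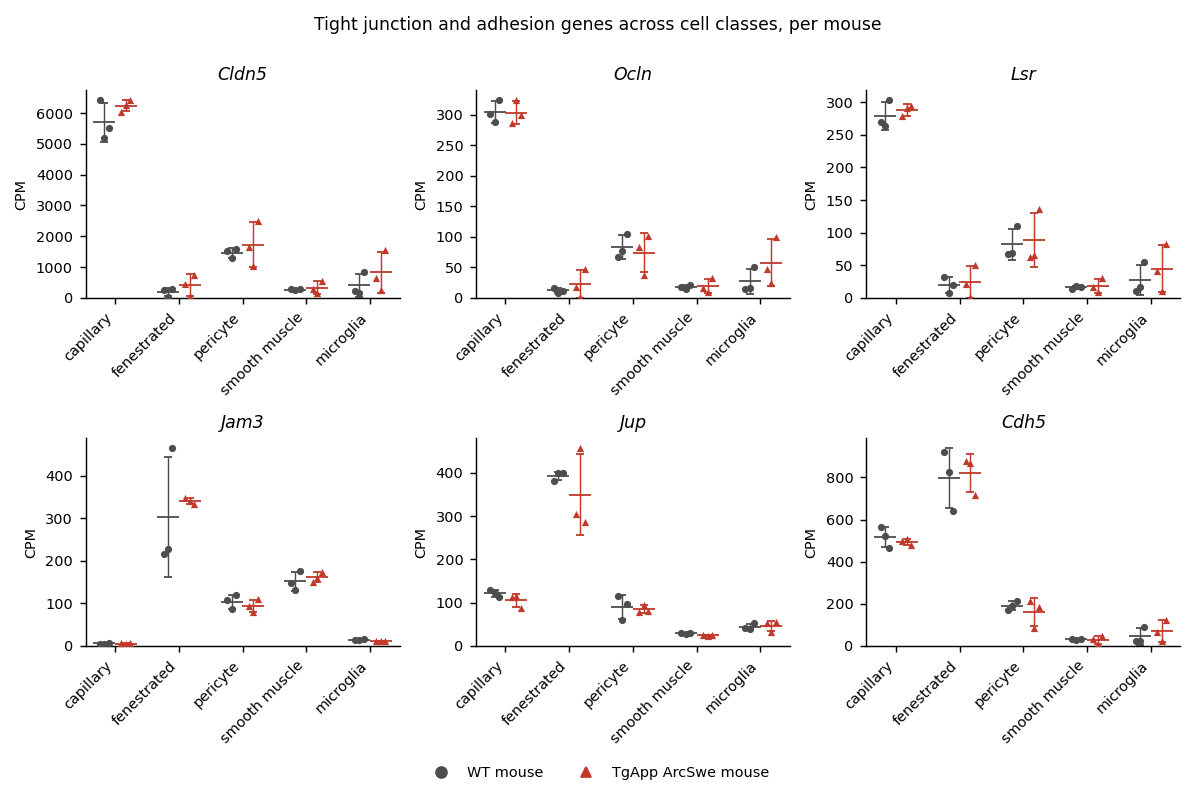
CPM of 6 junction genes in capillary-like, fenestrated, pericyte-, smooth muscle-, and microglia-like cells; circles are WT mice, triangles are TgApp ArcSwe mice, and bars give the mean ± SD of 3 mice. *Cldn5*, *Ocln*, and *Lsr* are highest in capillary-like cells, and *Jam3*, *Jup*, and *Cdh5* are highest in fenestrated cells.

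Among the immunoglobulin-type adhesion molecules, *Jam3*, the gene of JAM-C, was at 217, 227, and 465 CPM in fenestrated cells of the WT mice and at 348, 339, and 334 CPM in TgApp ArcSwe mice. The capillary values of *Jam3* were 4.41 to 6.51 CPM, far below, and the ratio of the means was 56.4. Mural cells also have *Jam3*, and 9 pericyte markers summed to 23.8 to 152 CPM in fenestrated cells, with *Kcnj8* at 0 in every mouse, against a mean sum of 20434 CPM in pericyte-like cells. A list of 8 smooth muscle markers summed to 43.8 to 162 CPM in fenestrated cells, with *Cnn1* at 0. *Jam2*, the gene of JAM-B, which binds JAM-C, averaged 317 CPM in capillary-like, 238 CPM in large arterial-like, and 182 CPM in fenestrated cells, the latter 2 below all capillary values. *F11r*, the gene of JAM-A, and *Pecam1* were apart and higher in fenestrated cells, with means of 199.8 against 154 CPM and of 1123 against 756 CPM. *Esam*, an EC adhesion molecule, was apart and lower in large arterial-, arteriolar-, and venous-like and in fenestrated cells than in capillary-like cells, by log2 ratios of -0.55, -0.22, -0.11, and -0.27.

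*Igsf5*, the gene of JAM4, declined along the arterial side. It was at 34.5, 29.5, and 50.4 CPM in capillary-like cells of the WT mice and at 30.1, 37.5, and 34.2 CPM in those of the TgApp ArcSwe mice. Arteriolar-like cells had 17.1, 14.8, and 19.5 CPM and 13.1, 18.1, and 19.1 CPM. All arteriolar values lay below all capillary values, as did the large arterial values of 4.93 to 16.7 CPM. In fenestrated cells 6 UMIs of *Igsf5* were counted in all, against 1253 in capillary-like cells. Its log2 ratio of venous- to capillary-like cells was -0.678 to -0.436 when each mouse was left out. *Nectin2*, whose product pairs with nectins of the neighbouring cell and binds afadin, was highest in veins. Its venous values were 26.98, 23.3, and 46.1 CPM in the WT mice and 24.3, 21.1, and 37.1 CPM in the TgApp ArcSwe mice, and its arteriolar values were 15.1, 16.3, and 16.6 CPM and 13.1, 14.99, and 14.4 CPM. All venous values lay above all arteriolar values, a 1.98-fold difference of the means. Against capillary-like cells *Nectin2* was higher in veins in 6 of 6 mice, by a log2 ratio of 0.89, but the ranges overlapped.

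Among the cadherins and catenins, *Cdh2*, the gene of N-cadherin, through which ECs bind pericytes, differed most along the barrier. In capillary-like cells *Cdh2* was at 52.6, 42.6, and 88.3 CPM in the WT mice and at 51.4, 71.8, and 62.4 CPM in the TgApp ArcSwe mice. Arteriolar-like cells had 20.5, 19.2, and 21.1 CPM and 14.97, 18.1, and 17.5 CPM, and large arterial-like cells 2.46 to 11.8 CPM. These 3 classes did not overlap, and the mean capillary level was 3.31-fold the arteriolar and 7.78-fold the large arterial one. Venous-like cells, at 55.8 ± 11.6 CPM (SD, n = 6), overlapped the capillary values. Pericyte-like cells had *Cdh2* at 241 ± 60.7 CPM, and the 9 pericyte markers summed on average to 27.2 CPM in capillary-like and 24.9 CPM in arteriolar-like cells, and their part in the *Cdh2* difference was not tested.

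*Cdh5*, the gene of VE-cadherin and the main cadherin of ECs, was at 563, 519.7, and 467 CPM in capillary-like cells of the WT mice and at 497, 508, and 479.7 CPM in those of the TgApp ArcSwe mice. Fenestrated cells had 920.4, 827, and 642 CPM and 875, 869.9, and 717 CPM, all above all capillary values. *Jup*, the gene of plakoglobin, a catenin, was at 372 ± 64.4 CPM (SD, n = 6) in fenestrated and 114 ± 14.1 CPM in capillary-like cells, also without overlap. The fenestrated cells thus had higher VE-cadherin and plakoglobin transcripts beside lower claudin-5 and occludin transcripts. When each mouse was left out, the log2 ratio of *Jup* in venous- to capillary-like cells was -0.594 to -0.451. In arteriolar- to venous-like cells it was 0.586 to 0.710. *Ctnnb1* and *Ctnna1*, the genes of β-catenin and α-catenin, were apart and lower in fenestrated cells, by log2 ratios of -0.67 and -0.28, whereas *Ctnnd1*, the gene of p120-catenin, overlapped at a ratio of 0.003. *Vcl* encodes vinculin, which joins junctions under tension to actin. Its venous level was above the capillary level in 6 of 6 mice, with a log2 ratio of 0.72, and the ranges overlapped.

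Of the scaffold and polarity genes, *Tjp1*, the gene of ZO-1, had 1108, 1133, and 1511 CPM in capillary-like cells of the WT mice and 1071, 1176, and 1323 CPM in those of the TgApp ArcSwe mice. Large arterial-like cells were at 684, 562, and 679 CPM and 596, 674, and 630.3 CPM, and fenestrated cells at 265, 217, and 264 CPM and 319.6, 226, and 349 CPM. The 3 classes did not overlap. *Magi3*, a scaffold with several PDZ domains, was at 298 ± 44.95 CPM (SD, n = 6) in capillary-like, 201 ± 19.3 CPM in arteriolar-like, and 85.1 ± 16.01 CPM in large arterial-like cells, the last below both others in all mice. *Pard3*, the gene of the polarity protein PAR3, and *Afdn*, the gene of afadin, were apart and lower in large arterial-like cells, by log2 ratios of -0.996 and -0.57. In fenestrated cells *Pard3*, *Cgnl1* (paracingulin), and *Patj* (a partner of polarity proteins) were apart and lower, by log2 ratios of -2.14, -2.18, and -3.64, and *Mpdz*, the gene of the scaffold MUPP1, was apart and higher by 0.90. *Magi1*, a further scaffold, overlapped there. *Cgn*, the gene of cingulin, averaged at most 0.609 CPM in any class.

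Of the connexins, *Gja5* and *Gja4* had arterial gradients along the barrier zones and *Gja1* did not. *Gja5*, the gene of connexin 40, was at 52.3, 54.2, and 55.4 CPM in large arterial-like cells of the WT mice and at 50.9, 77.5, and 56.97 CPM in those of the TgApp ArcSwe mice. Arteriolar-like cells had 3.79 to 8.74 CPM, well below. In capillary-like cells 8 UMIs were counted in all, a mean of 0.219 CPM. *Gja4*, the gene of connexin 37, was at 127, 111, and 109 CPM and 109, 118, and 121 CPM in large arterial-like cells, at 28.9, 21.96, and 25.9 CPM and 43.4, 30.8, and 42.1 CPM in arteriolar-like cells, and at 0.780 to 3.22 CPM in capillary-like cells. The 3 classes did not overlap, and the arteriolar mean was 18.1-fold the capillary mean. *Gja4* was not particular to the arterial side. Its log2 ratio of fenestrated to capillary-like cells was 4.70 to 5.28 when each mouse was left out, beside 4.10 to 4.34 for arteriolar-like cells. That of arteriolar- to venous-like cells was 4.86 to 5.13. Smooth muscle-like cells had *Gja4* at 259 ± 20.3 CPM (SD, n = 6), and the 8 smooth muscle markers summed to 29.6 to 138 CPM in large arterial-like and 20.3 to 109 CPM in capillary-like cells. The part of smooth muscle RNA in the *Gja4* difference was not tested.

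*Gja1*, the gene of connexin 43, had arteriolar values of 29.7, 47.9, and 30.2 CPM in the WT mice and 39.05, 33.5, and 48.4 CPM in the TgApp ArcSwe mice, and venous values of 6.74, 7.37, and 5.49 CPM and 10.5, 12.2, and 12.9 CPM. All arteriolar values lay above all venous values, with a 4.14-fold difference of the means, and the capillary values of 17.2 to 30.9 CPM lay above the venous ones too. Large arterial-like cells had 7.45 to 30.7 CPM and overlapped the capillary values. Fenestrated cells had the highest endothelial level, at 186, 173, and 112 CPM and 201, 158, and 162 CPM. Astrocytes are the brain cells known for abundant *Gja1*, and 9 astrocyte markers summed on average to 29.3 CPM in arteriolar-like, 15.7 CPM in capillary-like, 36.4 CPM in venous-like, and 32.1 CPM in fenestrated cells, with *Aqp4* and *Gjb6* at 0 in fenestrated cells of every mouse.

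**Figure D3:**
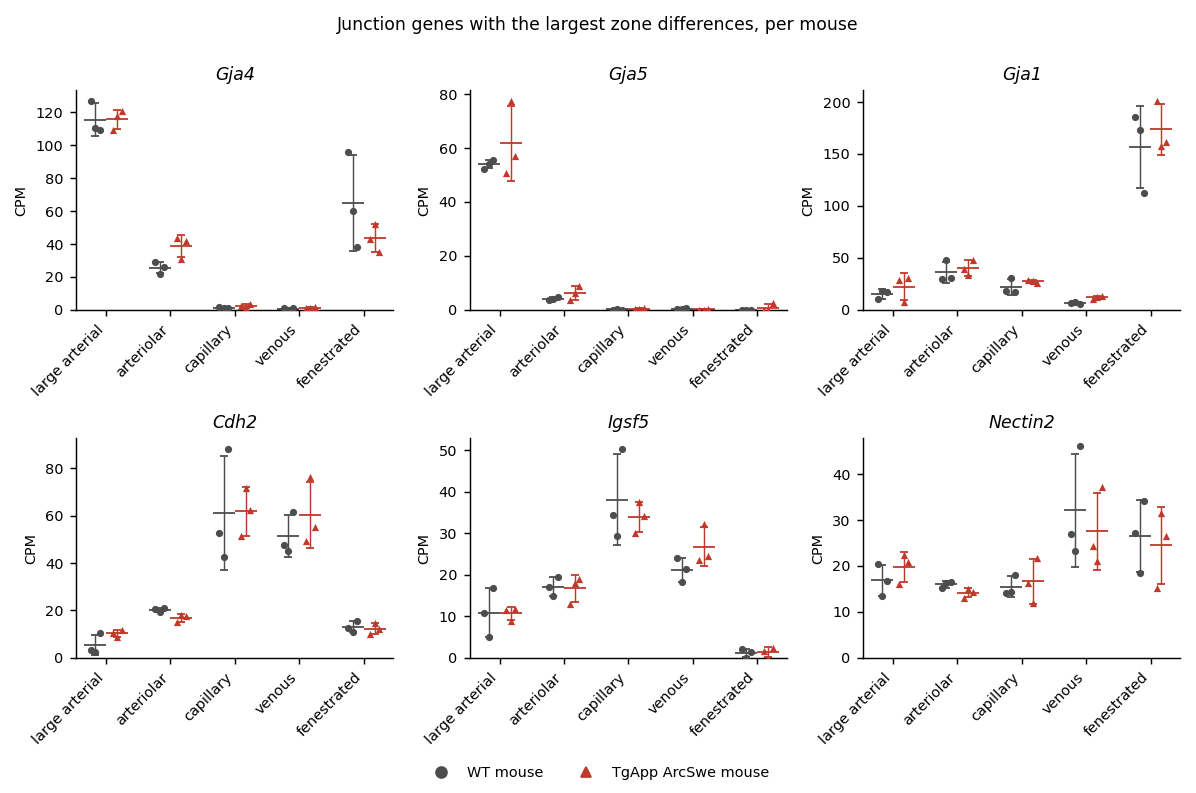
CPM of 6 junction genes in large arterial-, arteriolar-, capillary-, and venous-like cells and in fenestrated cells; circles are WT mice, triangles are TgApp ArcSwe mice, and bars give the mean ± SD of 3 mice. *Gja4* and *Gja5* decline from the large arterial to the capillary column, *Cdh2* and *Igsf5* are higher in the capillary and venous columns than in the arterial ones, and the barrier mean of *Nectin2* is highest in the venous column.

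Junction transcripts outside the endothelium were held against the endothelial RNA that those classes contain. A list of 12 barrier endothelial markers, none of them a junction gene, was present in pericyte-like cells at 28.5% to 43.2% of the level in barrier ECs of the same mouse (range of the markers' means over 6 mice), in smooth muscle-like cells at 5.18% to 8.78%, and in microglia-like cells at 11.04% to 17.4%. With cells that held a UMI of the endothelial marker *Flt1* left out, these ranges were 1.02% to 9.62%, 0.438% to 3.99%, and 0.772% to 8.56%, and 19, 20, and 15 junction genes lay above them. Of 28 junction genes with at least 10 CPM in barrier ECs or the other class, 17 lay above the range from all cells in pericyte-like cells (92.5% of all genes), 20 in smooth muscle-like cells (95.4% of all genes), and 14 in microglia-like cells (91.7% of all genes). Most genes of any kind were thus above the range, and the counts are no sign that junction genes as a group belong to these cells. *Cldn5* (30.6%, 5.74%, and 11.8% in the 3 classes), *Ocln*, *Lsr*, *Pecam1*, and *Cdh5* were not above the range in any of them.

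For single genes the level itself is given. *Jam3* was at 1627% ± 194 (SD, n = 6) of the endothelial level in pericyte-like cells and at 2572% ± 146 in smooth muscle-like cells, and *Gja4* was at 970.3% ± 284 and 1346% ± 343. *Cdh2* separated the mural cell types, with 608% ± 103 in pericyte-like and 27.6% ± 4.52 in smooth muscle-like cells. *Mpdz* (224% and 151%) and *Vcl* (154% and 166%) were above the endothelial level in every mouse in both mural types, and *Pard3* was so in pericyte-like cells (137% ± 26.1). *Esam* was at 66.4% ± 11.1 in pericyte-like and 35.2% ± 3.38 in smooth muscle-like cells, above the list in both. The other genes above the list averaged 44.5% to 126% of the endothelial level in pericyte-like cells and 10.3% to 92.8% in smooth muscle-like cells.

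Microglia-like cells were shallow, with a median of 1572 UMIs per cell beside 3972 in barrier ECs. In them *Magi1* was at 256% ± 39.3 (SD, n = 6) of the endothelial level. *F11r* was at 367, 339.8, and 340.1 CPM in microglia-like cells of the WT mice and at 289, 282, and 235 CPM in those of the TgApp ArcSwe mice, which was 186% ± 39.6 of the endothelial level. All 6 microglial values of *F11r* were above the endothelial value of the same mouse. *Jam3* (214% ± 46.7) and *Nectin2* (145% ± 25.99) exceeded the endothelial level as well, *Jam3* at a mean of 12.9 CPM. *Ctnnd1* was at 74.05% ± 6.82, and the other genes above the list averaged 18.9% to 70.5%.

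**Figure D4:**
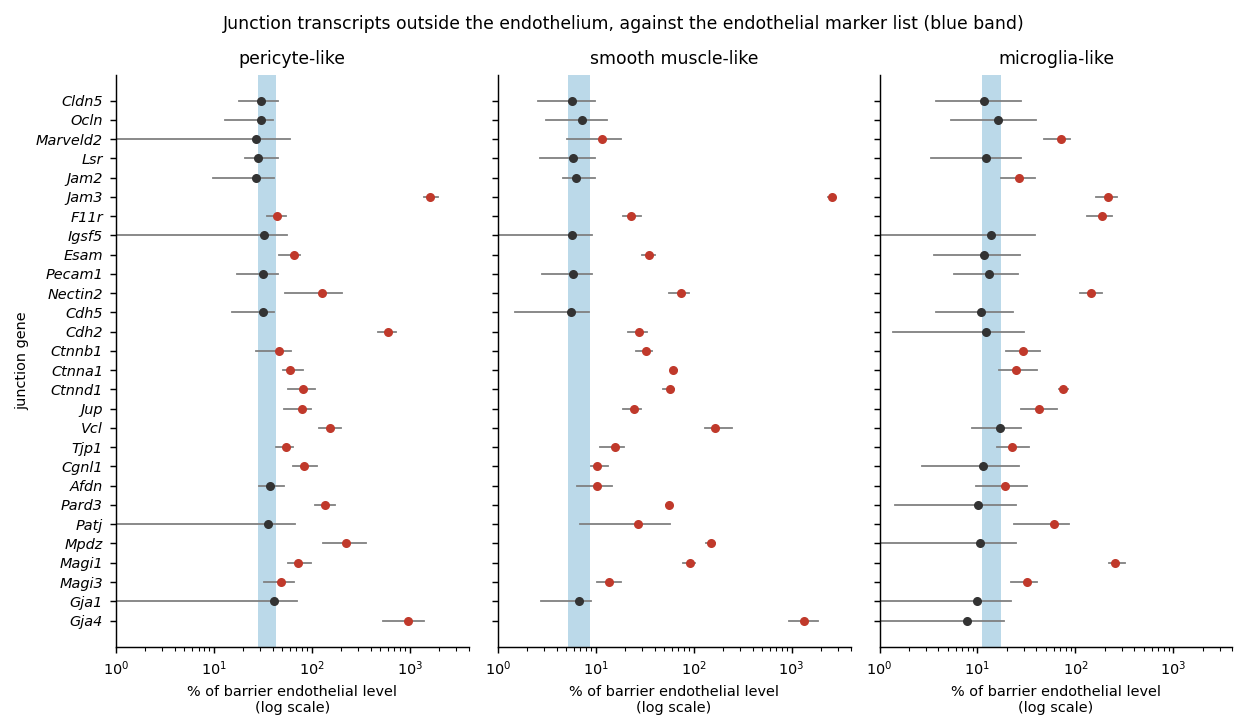
Level of each junction gene in pericyte-, smooth muscle-, and microglia-like cells as percent of the barrier endothelial level in the same mouse (log axis); points are means over 6 mice, grey lines run from the lowest to the highest mouse and are cut at 1%, the blue band is the range of the means of 12 barrier endothelial markers, and red points lie above it. *Cldn5*, *Lsr*, *Pecam1*, and *Cdh5* are in or near the band in each panel, whereas *Jam3* lies to the right of it in all 3 panels.

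Whether the junction genes differ between TgApp ArcSwe and WT mice was tested in each class with edgeR's quasi-likelihood test on the summed UMIs, and p-values were adjusted by Benjamini-Hochberg across every gene in the fit. No junction gene passed in any class. In barrier ECs 0 of 30 members had an adjusted p under 0.05, as had 0 of all 13442 genes (0%), and at an unadjusted p under 0.05 there were 0 members and 594 genes (4.42%). DESeq2 called 0 members and 7 genes there. The fitted change was above 0 for 18 and below 0 for 12 members, with a median log2 fold change of 0.034 beside -0.004 over all genes. In arterial-, capillary-, and venous-like cells 0 of 30, 29, and 28 members and 0 genes (0%) were called. In fenestrated cells 0 of 25 members and 0.0124% of all genes were called, in mural cells 0 of 26 and 0%, and in microglia-like cells 0 of 27 and 0.0347%. At an unadjusted p under 0.05 there were 4 members in arterial-like (5.67% of all genes), 1 in capillary-like (4.08%), 2 in venous-like (3.68%), 1 in fenestrated (4.30%), 0 in mural (3.41%), and 2 in microglia-like cells (7.87%), and DESeq2 called 0 members in every class. In venous- and microglia-like cells, where the deviations of all same-numbered mice correlated by over 0.1, a fit with the replicate number as a block was added. It called 0 members and 7 of 10239 genes in venous-like cells, and 0 members and 64 of 11519 genes in microglia-like cells. Without the block 0 and 4 genes were called. With it, 3 members and 690 genes in venous-like cells had an unadjusted p under 0.05, and 9 members and 1248 genes in microglia-like cells.

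All 3 TgApp ArcSwe mice lay on one side of all 3 WT mice for 3 members in barrier ECs (10.7% of all genes), 5 in arterial- (11.6%), 3 in capillary- (10.4%), and 4 in venous-like cells (9.66%), 1 in fenestrated cells (9.73%), 0 in mural cells (8.70%), and 2 in microglia-like cells (16.7%). Read against these shares, the counts are no result about the junction genes as a group. *Vcl* was among them in all 4 barrier classes, with the TgApp ArcSwe mice above, and *Jam2* in barrier ECs and in arterial- and venous-like cells, with the TgApp ArcSwe mice below (log2 fold change -0.11 ± 0.092 (SE) in barrier ECs). The barrier EC sums contain the cells of the zones, and all classes come from the same mice, so these are not separate observations.

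*Vcl* had the smallest unadjusted p of the members in barrier ECs. It was at 341, 372, and 198 CPM in the WT mice and at 424, 406, and 427 CPM in the TgApp ArcSwe mice. The groups did not overlap, and WT replicate 3 stood lowest. The log2 fold change was 0.48 ± 0.23 (SE), with an adjusted p of 0.995 in edgeR. Without WT replicate 3 it was 0.23, and 5 members then had an unadjusted p under 0.05 and 0 an adjusted one, as 1728 of 13726 genes (12.6%) had an unadjusted p under 0.05. In arterial-, capillary-, and venous-like cells *Vcl* had log2 fold changes of 0.42, 0.55, and 0.59 and adjusted p-values of 0.835, 1.000, and 1.000 in edgeR. Without WT replicate 3, whose capillary-like cells came mostly from 1 cluster, these changes were 0.27, 0.33, and 0.35. In venous-like cells the adjusted p of *Vcl* was 0.0400 in edgeR without the filter on low counts, a fit that called 69 of 18325 genes.

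The microglia-like class was made of different clusters in the genotypes. One cluster, with a median UMI number 1.46 times that of the library, held 73.3% and 67.4% of these cells in WT replicates 1 and 2. It held 1.49% to 16.7% in the other mice. Another held 88.8% in WT replicate 3. A further cluster held 68.8%, 87.9%, and 76.6% in the TgApp ArcSwe mice and 25.7%, 31%, and 6.09% in the WT mice. Both of these had a median UMI number of 0.36 of that of the library. Most microglia-like cells of the TgApp ArcSwe mice and of WT replicate 3 thus came from shallow clusters. In the sums of the class, cluster and genotype cannot be told apart. The cluster most common in the TgApp ArcSwe mice held 91 to 1797 cells in each of the 6 mice, and the genotypes were not compared within it. In microglia-like cells *Vcl* was at 30.3, 37.7, and 48.7 CPM in the WT mice and at 86.2, 42.1, and 118 CPM in the TgApp ArcSwe mice. The groups overlapped, and the adjusted p was 0.376 in edgeR. The fitted change was above 0 for 21 of 27 members there, with a median log2 fold change of 0.45 beside -0.021 over all genes. Of the further list of genes given below, 26 of 37 were above 0, with a median of 0.21. The median of the members depended on the setting and the mice. It was 0.12 at resolution 2, 0.26 with *Flt1*-positive cells left out, 0.68, 0.81, and 0.20 without TgApp ArcSwe replicates 1, 2, and 3, and 0.99 without WT replicate 3, where 17 of 28 members and 3082 of 11966 genes had an unadjusted p under 0.05. The 12 endothelial markers summed to 1954 to 6508 CPM in microglia-like cells of the WT and 1910 to 10058 CPM in those of the TgApp ArcSwe mice, and their part in these values was not tested.

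*Cldn5* in barrier ECs was at 5615, 4512, and 4645 CPM in the WT mice and at 5361, 5737, and 5579 CPM in the TgApp ArcSwe mice. The groups overlapped, and the log2 fold change was 0.20 ± 0.14 (SE) with an adjusted p of 0.995 in edgeR. *Marveld2* was at 13.4, 18.2, and 15.03 CPM and 12.4, 10.96, and 14.7 CPM, also with overlap, at a log2 fold change of -0.26 ± 0.17. *F11r* and *Gja1*, the others of the 5 members with the smallest unadjusted p in barrier ECs, had log2 fold changes of 0.15 ± 0.079 and 0.29 ± 0.20 and an adjusted p of 0.995 in edgeR for both. For *Ocln*, *Tjp1*, and *Cdh5* the log2 fold changes in barrier ECs were 0.057 ± 0.092, -0.029 ± 0.11, and -0.027 ± 0.12 (SE). In fenestrated cells the *Cldn5* values given above had a log2 fold change of 1.26 ± 0.69 with an adjusted p of 1.000 in edgeR, and those of *Ocln* 1.06 ± 0.64. The call for *Cldn5* there depended on the filter on low counts, since without it the adjusted p was 2.74e-07 in edgeR at a log2 fold change of 1.25 ± 0.197 (SE). The change was nearly the same and the SE smaller, and that fit called 76 of 16534 genes. The TgApp ArcSwe and WT values overlapped, and the erythrocyte markers summed to 344 to 2204 CPM in fenestrated cells of the WT and 348 to 25020 CPM in those of the TgApp ArcSwe mice.

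*Gja5* was at 14.8, 11.4, and 16.6 CPM in arterial-like cells (large arterial and arteriolar together) of the WT mice and at 17.2, 21.2, and 23.7 CPM in those of the TgApp ArcSwe mice. The groups did not overlap, and the log2 fold change was 0.56 ± 0.17 (SE) with an adjusted p of 0.705 in edgeR. Large arterial-like cells, in which *Gja5* is high, made up 17.7%, 11.1%, and 17.7% of the arterial-like cells in the WT mice and 20.2%, 17.9%, and 23.2% in the TgApp ArcSwe mice, and within large arterial-like cells the *Gja5* values of the genotypes overlapped. *Gja4* had a log2 fold change of 0.48 ± 0.15 in arterial-like cells and an adjusted p of 0.722 in edgeR, and its groups overlapped there and in large arterial-like cells. In arteriolar-like cells all TgApp ArcSwe values of *Gja4*, given above, lay above all WT values. Genotype was not tested in that class alone. *Gja1* in venous-like cells, whose values are given above, was higher in all 3 TgApp ArcSwe mice than in any WT mouse, with a log2 fold change of 0.85 ± 0.25 and an adjusted p of 1.000 in edgeR. The 9 astrocyte markers summed to 29.5 to 74.6 CPM in venous-like cells of the WT and to 14.5 to 42.8 CPM in those of the TgApp ArcSwe mice.

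*F11r* in arterial-like cells was at 176, 169, and 182 CPM in the WT mice and at 204, 222, and 205 CPM in the TgApp ArcSwe mice. The groups did not overlap, and the log2 fold change was 0.29 ± 0.089 (SE) with an adjusted p of 0.706 in edgeR. *Magi3* in fenestrated cells (0.53 ± 0.23) and *Ocln* in microglia-like cells (1.31 ± 0.56) also had an unadjusted p under 0.05, and their adjusted p-values in edgeR were 1.000 and 0.621. Whether the genotype difference itself differed between zones was tested as an interaction. Between arterial- and capillary-like cells 0 of 30 members and 0 of 12198 genes (0%) passed in edgeR, and between venous- and capillary-like cells 0 of 30 and 0 genes (0%), with 1 member at an unadjusted p under 0.05 in each, beside 5.00% and 4.33% of all genes.

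**Figure D5:**
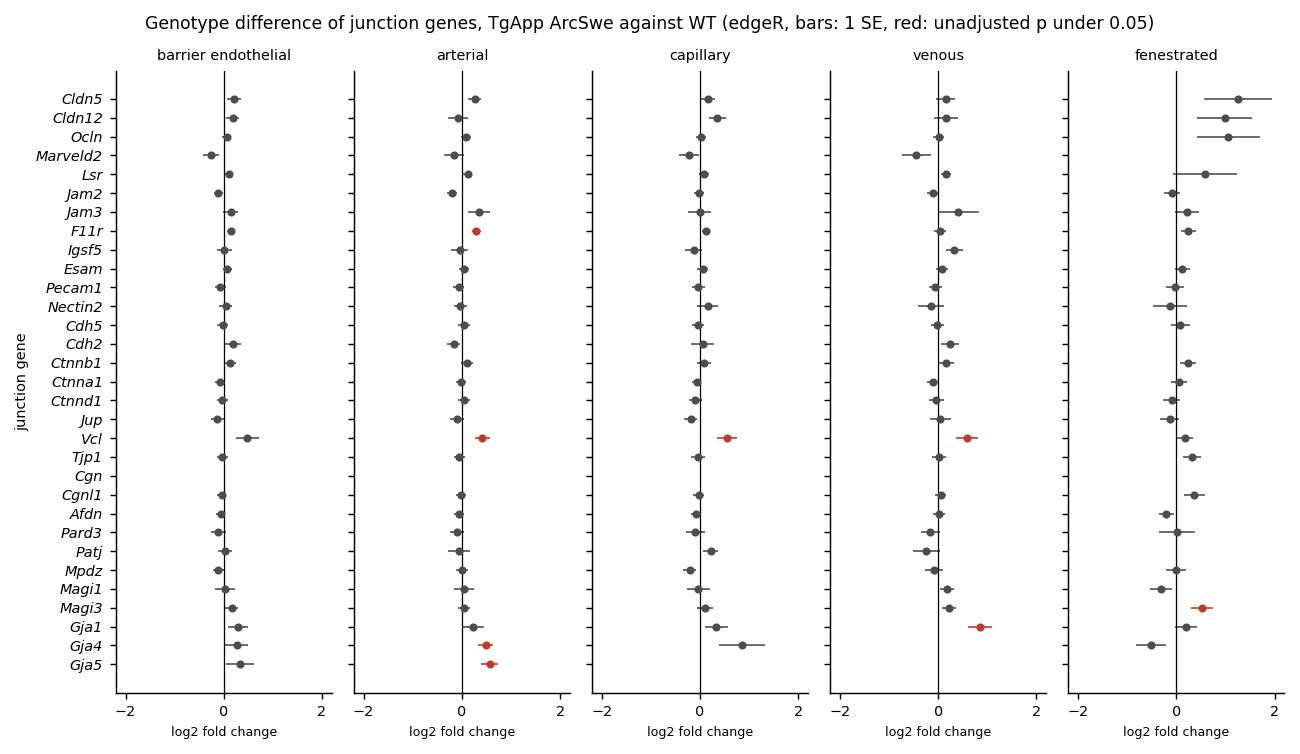
Log2 fold change of each junction gene between TgApp ArcSwe and WT mice (edgeR) in barrier ECs, in the arterial-, capillary-, and venous-like zones, and in fenestrated cells, with bars of 1 standard error; red marks an unadjusted p under 0.05, and genes not tested in a class have no point. No gene has an adjusted p under 0.05, and *Vcl* lies to the right of 0 in each panel.

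A further 55 genes of cell junctions or linked to them, which had not been left out of the clustering, were looked up as a list. Not all of them encode parts of tight, adherens, or gap junctions. In large arterial- against capillary-like cells 11 of 34 lay above and 9 below (12.8% and 15.1% of all genes), and in fenestrated against capillary-like cells 8 of 31 lay above and 10 below (13.4% and 12.9%). *Cdh13*, the gene of T-cadherin, averaged 709 CPM in large arterial-, 301 CPM in arteriolar-, and 14.2 CPM in capillary-like cells. *Dsp*, the gene of desmoplakin, had 260 UMIs in large arterial-like cells, with 23.5 to 38.1 CPM by mouse, and 7 UMIs in capillary-like cells. These genes thus shared the arterial side with *Gja4* and *Gja5*. *Ildr2*, a relative of *Lsr*, averaged 70.7 CPM in capillary-like and 4.31 CPM in fenestrated cells. *Marveld1* (104 against 9.33 CPM) and *Nectin1* (10.5 against 2.00 CPM) were higher in large arterial- than in capillary-like cells, and *Magi2* averaged 2.97 CPM in arteriolar-like and 22.9 CPM in capillary-like cells. Between the genotypes edgeR called 0 of these genes in any class and DESeq2 0, and of the 42 tested in barrier ECs 2 had an unadjusted p under 0.05. Without WT replicate 3, edgeR called 1 of them in microglia-like cells, *Cdh13*, with an adjusted p of 0.0431.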

How the data were processed

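Gene-by-cell UMI counts were deposited by the authors for 6 libraries. Per the labels and the study's methods they were made with Cell Ranger 7.0.0 against mm10 with added sequences for *Clec7a* and human NOTCH3. Only cells in which 500 to 4500 genes were detected, with a mitochondrial share below 10%, entered the analysis. They were clustered (Leiden, resolution 1, 2000 variable genes without the 31 junction genes, 30 principal components, 20 neighbours), and clusters were named from marker lists. No tool that detects doublets was run. Clusters with markers of a second class or without a clear class were left unnamed, and 1208 cells lay in such major clusters. Of the 29406 ECs of the barrier, 5342 in which *Cx3cr1* or *Aif1* was counted and 3620 in clusters that could not be named were left out (844 cells met both criteria), and so were 46 pericyte-like cells with a UMI of a fibroblast marker; the choices on unnamed clusters and fibroblast markers were made after seeing the data.

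Raw counts were summed per mouse and class, and CPM were computed from the sums. Genotypes were compared with edgeR 4.0.16 (filterByExpr, TMM, quasi-likelihood test, Benjamini-Hochberg adjustment, threshold 0.05), and DESeq2 1.42.0, both in R 4.3.3, was an alternative. The genotype effect was compared between zones in one fit with the mouse as a block. The other alternatives were RLE size factors, no filter on low counts, a replicate block, stricter cell filters, resolution 2, junction genes kept in the clustering, marker-positive cells kept or left out, TMM-scaled CPM, and leaving out each mouse. The test was checked on simulated data: of 200 genes changed by 1 on the log2 scale, 138 were recovered in barrier ECs, 80 in fenestrated cells, and 0 in microglia-like cells, and of 200 changed by 2, 168, 182, and 155. Unchanged genes called in these classes were 9, 11, and 1 for a change of 1 and 14, 15, and 12 for 2. The 200 genes were changed together, and recovery with fewer changed genes was not simulated.

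The deviations of same-numbered mice of the genotypes correlated by over 0.1 for every number in venous-like (0.127 to 0.353) and microglia-like cells (0.169 to 0.371). In the other classes the correlations were positive as well, with the lowest at 0.00431 to 0.0717. The highest there were those of replicate 3, at 0.246 to 0.337. The labels name no shared litter or day.

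The 31 genes and all lists were chosen with earlier results of these data known. Values or ratios were given for the 5 members with the largest zone ratio in each pair, the 5 with the smallest unadjusted p in barrier ECs, and members above the endothelial list outside the endothelium. Further members were named by role, by an unadjusted p under 0.05, or by groups that did not overlap, after their values were seen. No column of per-sample values was left unused.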

Additional observations from a re-analysis of the deposited data

Results flagged for a closer look

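*F11r*, the gene of JAM-A, stood on opposite sides of the WT values in different classes. In arterial-like cells all 3 TgApp ArcSwe mice lay above all 3 WT mice, with a log2 fold change of 0.29, and in microglia-like cells all 3 lay below them, with a log2 fold change of -0.307. Neither change passed the adjusted threshold in edgeR (adjusted p of 0.706 and 0.726), and the difference between the classes was not tested. Microglia-like cells of the genotypes came mostly from different clusters, so that cluster and genotype cannot be told apart in the sums of that class. The genotypes were not compared within a single cluster.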

How the results depend on the processing

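The number of junction genes called between genotypes was 0 in every class under each alternative, except without the filter on low counts. There 1 gene was called in venous-like cells (*Vcl*), beside 69 of all 18325 genes, and 1 in fenestrated cells (*Cldn5*), beside 76 of all 16534 genes. The number of junction genes called was 0 to 0 when each mouse was left out, for the zone interactions too. Over all genes, the number called reached 83 in arterial-like, 69 in venous-like, 76 in fenestrated, 18 in mural, and 101 in microglia-like cells under the alternatives. In barrier ECs same-numbered mice correlated by 0.059 to 0.332 in their deviations, and the numbers were not taken to pair mice there, nor in arterial- and capillary-like, fenestrated, and mural cells. With the replicate block 0 junction genes were called in any class, and the genes called were 9 in place of 0 in arterial-like, 7 in place of 0 in venous-like, and 64 in place of 4 in microglia-like cells. The mice that correlated best with their own number were 3 of 6 in barrier ECs, 5 in venous-like, and 6 in microglia-like cells.

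Zone counts moved with the settings, and the cause was not tested. The share of all genes on that side in the same setting is given in brackets. For arteriolar against capillary, junction genes above were 2 with TMM-scaled CPM (7.58%) and 5 at resolution 2 (8.81%). They were 2 with the stricter cell filter (7.60%) and 2 with microglial-marker cells kept (7.74%). Junction genes below were 6 with TMM-scaled CPM (5.29%) and 6 with junction genes kept in the clustering (6.91%). For large arterial against capillary, junction genes above were 5 with TMM-scaled CPM (13.6%) and 5 with microglial-marker cells kept (13.3%). For venous against capillary, junction genes above were 2 with TMM-scaled CPM (4.76%). They were 1 at resolution 2 (5.00%), with junction genes kept in the clustering (5.31%), with the stricter filter (3.83%), and with microglial-marker cells kept (4.09%). Junction genes below were 3 with TMM-scaled CPM (3.89%) and 3 at resolution 2 (6.82%). Leaving out each mouse gave 1 to 3 junction genes above (8.26% to 9.71%) and 3 to 5 below (5.73% to 6.84%) for arteriolar against capillary. For large arterial against capillary it gave 3 to 6 above (13.6% to 14.9%) and 11 to 12 below (16.4% to 21.5%). For venous against capillary it gave 0 to 1 above (4.23% to 5.67%) and 5 to 6 below (7.44% to 9.28%). For fenestrated against capillary it gave 8 to 8 above (14.3% to 15.7%) and 15 to 16 below (14.1% to 16.7%). For arteriolar against venous it gave 5 to 8 above (13.7% to 16.4%) and 2 to 4 below (7.67% to 8.90%). The highest of these counts for large arterial against capillary came without WT replicate 3, where the shares of all genes were highest too. Junction genes above the endothelial list numbered 16 to 18 in pericyte-like, 20 to 20 in smooth muscle-like, and 14 to 15 in microglia-like cells when each mouse was left out. They were 19, 20, and 15 with *Flt1*-positive cells left out, beside 9878 of 10382, 9440 of 9906, and 9344 of 10193 genes of any kind. Direction was followed for the 5 members with the smallest unadjusted p in barrier ECs, those with an unadjusted p under 0.05 in a class, and the 5 members of each zone pair. None of these changed direction under any alternative run. The direction of other named values was not followed. With 3 mice a group, p-values measure the spread between these mice only.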
